A study of Arabidopsis thaliana with 9 samples.

Results

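The class III homeodomain-leucine zipper (HD-ZIP III) genes and the *KANADI* genes of *Arabidopsis* were followed in RNA from dissected early heart embryos. The members were chosen by locus, and they are 9 of the 33603 genes of the transcript index. The 5 HD-ZIP III genes are *PHB* (AT2G34710), *PHV* (AT1G30490), *REV* (AT5G60690), *CNA* (AT1G52150) and *ATHB8* (AT4G32880). The 4 *KANADI* genes are *KAN1* (AT5G16560), *KAN2* (AT1G32240), *KAN3* (AT4G17695) and *KAN4* (AT5G42630). All 9 passed the filter on low counts. RNA was sequenced in 9 libraries, 3 biological replicates for each of 3 genotypes, with 20 embryos per library. Smart-seq2, a method for very low RNA input that copies whole transcripts, was used. 35S::*FCA* is Col-0 carrying a transgene that drives the RNA-binding protein FCA from the constitutive 35S promoter. Col *FRI* carries an active *FRIGIDA* allele in the Col-0 background, and its parent plants were vernalized for 6 weeks as seedlings. Col-0, the wild type, has a loss-of-function *FRI* allele, and no vernalization is given for the parents of Col-0 or 35S::*FCA*. An effect of *FRI* and one of the cold treatment of the parents therefore cannot be told apart. How many independent lines or parent plants stand behind each genotype is not given in the sources used here. The study compared the genotypes because they set *FLC* differently, and the polarity genes are read here in the same comparisons.

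HD-ZIP III proteins are transcription factors with a homeodomain, a leucine zipper and a START domain. They promote the adaxial (upper) side of lateral organs, the shoot meristem and vascular tissue, and in the embryo they act in the apical and central domains. Their mRNAs are cut under the guidance of the microRNAs miR165 and miR166. KANADI proteins are transcription factors of the GARP class that promote the abaxial (lower) side and act in opposition to the HD-ZIP III proteins in the periphery of the embryo. By the time of the heart stage the cotyledon primordia have emerged, and both families are at work there.

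The HD-ZIP III transcripts share a microRNA site that the *KANADI* transcripts lack, and it is shown as a sequence feature that differs between the families. No other sequence feature was compared between them. The mature miRNAs were read from the TAIR10.1 genome at the RefSeq annotation, with bases 2 to 8 (the seed) in capitals. The first is encoded identically by 2 loci (*MIR165A* and *MIR165B*) and the second by 7 loci (*MIR166A* to *MIR166G*), and they share 1 seed. The best ungapped match of each HD-ZIP III mRNA follows as the spliced mRNA sequence in DNA letters, with the bases that face the seed in capitals.
ath-miR165a-3p: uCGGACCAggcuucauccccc
ath-miR166a-3p: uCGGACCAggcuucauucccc
PHB: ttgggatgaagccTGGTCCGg
PHV: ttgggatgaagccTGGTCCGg
REV: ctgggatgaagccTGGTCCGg
CNA: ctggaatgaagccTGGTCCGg
ATHB8: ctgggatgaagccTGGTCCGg

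In all 5 genes the site lies in coding sequence and is split by an intron, with 11 bases in the upstream exon and 10 in the next. In *PHB* (minus strand) the parts are chr2:14642656-14642666 in exon 4 and chr2:14642530-14642539 in exon 5, and in *PHV* (minus strand) chr1:10799435-10799445 and chr1:10799330-10799339, also in exons 4 and 5. In *REV* (plus strand) they are chr5:24398787-24398797 and chr5:24398889-24398898, and in *CNA* (minus strand) chr1:19413075-19413085 and chr1:19412976-19412985, again in exons 4 and 5. The *ATHB8* site is in exons 5 and 6 (minus strand, chr4:15866964-15866974 and chr4:15866872-15866881). No site had a mismatch facing the seed. Against the perfect complement of miR165a-3p, written with the complement's base first, the position from the 5′ end of the site and then the base of the site, every gene had G2T and A21G, *PHB* and *PHV* had G1T, and *REV*, *CNA* and *ATHB8* had G1C. *CNA* alone also had G5A. It had 4 mismatches to miR165a-3p and 3 to miR166a-3p, whereas the other 4 genes had 3 to miR165a-3p and 4 to miR166a-3p. The best match in a *KANADI* mRNA had 8 to 10 mismatches, of which at least 2 faced the seed. Mature miRNAs were not measured in these libraries.

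The libraries held 15166826 to 25847613 estimated counts, and the members together rested on 42 to 1451 counts per gene and library. The embryo markers chosen for this work, among them *LEC1*, *WOX9* and *ATML1*, summed to 223 to 331 TPM (a level per transcript length, scaled to the same total in every library). Of these 8 markers, 7 exceeded 3 counts in every library. Endosperm markers summed to 1.44 to 4.78 TPM, with 4 of 6 above 3 counts in every library, and seed coat markers to 11.0 to 17.5 TPM, with 5 of 7. In edgeR 0 endosperm and 0 seed coat markers were called in any comparison, also at an unadjusted p under 0.05 (4 of each list were tested). Without Col-0 replicate 3, *TTG2* of the seed coat list passed with a lower level against Col-0 in Col *FRI* libraries (-0.51 on the log2 scale, edgeR adjusted p = 0.0347). Of the embryo markers 7 were tested, and 0 were called in 35S::*FCA* against Col-0 (3 at an unadjusted p under 0.05 in edgeR, where 18.8% of all genes were). In Col *FRI* against Col-0, *WOX9*, which acts in the basal embryo, was higher (log2 fold change 0.51, edgeR adjusted p = 0.0169) and *WOX5*, a gene of the root stem cell niche, was lower (-0.81, adjusted p = 0.0205). *WOX5* was also lower in Col *FRI* than in 35S::*FCA* (-1.19, edgeR adjusted p = 0.00305). Without Col-0 replicate 3, *LEC1* (log2 fold change 0.27, edgeR adjusted p = 0.0246) and *ATML1* (0.25, adjusted p = 0.037) passed as higher in 35S::*FCA* than in Col-0. In that fit 0 embryo markers passed as lower, and 8.45% of all genes were called. The part of these markers in the polarity gene results was not tested. In the label check, *FCA* was higher in 35S::*FCA* than in Col-0, at 0.76 on the log2 scale (edgeR adjusted p = 0.032), and *FRI* and *FLC* were higher in Col *FRI* than in Col-0 (log2 fold changes 1.11 and 2.59). The spread between replicates was set against counting noise with a chi-square value, where 1 stands for noise alone. Over all genes the median value was 3.05 to 14.6 for pairs of 35S::*FCA* libraries, 1.15 to 1.60 for pairs of Col *FRI* libraries and 7.21 to 20.4 for pairs of Col-0 libraries. For the 9 polarity genes alone it was 2.48 to 25.5 in 35S::*FCA*, 0.313 to 0.918 in Col *FRI* and 29.2 to 48.9 in Col-0. The Col *FRI* libraries thus agreed within sampling noise for these genes but not for all genes, and they were counted as 3 samples because the labels list them as biological replicates. The p-values measure the spread between these samples, which may be partly technical. The main test used 1 estimate of the spread per gene for all 3 genotypes, although the spread differed between them. A p-value for 2 genotypes therefore depends also on the libraries of the genotype left out of that comparison. Col-0 replicate 3 stood apart, with 22.8% of its TPM in organelle genes against 11.9 and 13.6% in the other Col-0 libraries. The 35S::*FCA* libraries had 15.8 to 17.4% and the Col *FRI* libraries 19.5 to 20.8%, so that the Col *FRI* libraries differed from Col-0 replicates 1 and 2 in the same direction as Col-0 replicate 3. With organelle genes left out of the counts, the numbers of members called were the same in all 3 comparisons. Without Col-0 replicate 3 edgeR called 8.45% of all genes in 35S::*FCA* against Col-0, 21.8% in Col *FRI* against Col-0 and 19.6% in Col *FRI* against 35S::*FCA*, and results on the polarity genes that turn on this library are given with and without it.

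In every genotype the *KANADI* genes *KAN2*, *KAN1* and *KAN4* had the highest mean levels and *ATHB8* the lowest, although its libraries overlapped those of *CNA* in Col *FRI*. *KAN2*, which acts redundantly with *KAN1* on the abaxial side of leaves, averaged 25.8 ± 4.13 TPM over 35S::*FCA* libraries, 23.0 ± 1.09 TPM over Col *FRI* libraries and 22.8 ± 2.02 TPM over Col-0 libraries (SD, n = 3 per genotype). These levels put it above 85.5 to 87.6% of the genes with a TPM over 0. No *KAN2* library overlapped a library of *KAN1*, the next gene in the order, in any genotype. *KAN4* (also *ATS*), which is known for separating the integuments of the ovule, averaged 13.1 ± 2.13 TPM over 35S::*FCA* libraries, 11.8 ± 0.198 TPM over Col *FRI* libraries and 9.82 ± 2.88 TPM over Col-0 libraries (SD, n = 3 per genotype). The integuments become the seed coat, whose marker sums were 12.8 to 17.5 TPM in 35S::*FCA*, against 11.0 to 12.9 TPM in Col *FRI* and 12.0 to 14.8 TPM in Col-0, and their part in the *KAN4* level was not tested. *KAN3*, the least abundant *KANADI* gene, ranged from 1.62 to 4.01 TPM over the 9 libraries.

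Among the HD-ZIP III genes, *PHB* averaged 10.8 ± 2.34 TPM over 35S::*FCA* libraries, 9.57 ± 0.294 TPM over Col *FRI* libraries and 8.50 ± 1.85 TPM over Col-0 libraries (SD, n = 3 per genotype). *PHV*, its closest relative, followed in the order, and the libraries of the pair overlapped in 35S::*FCA* and Col-0 but not in Col *FRI*. The coding sequences of *PHB* and *PHV* are 83.9% identical and their mRNAs share at most 64 consecutive bases, fewer than the 75 bases of a read. Some reads were divided all the same, since the estimated counts were not whole in every library. In 35S::*FCA* replicate 1 they were 665.563 for *PHB* and 493.437 for *PHV*. The other pairs of HD-ZIP III genes are 66.7 to 73.7% identical, with *CNA* and *ATHB8* the most alike. *REV*, which is needed for axillary meristems and interfascicular fibres, had 2.64 to 4.33 TPM over the 9 libraries, and its overlap with *KAN3*, the next gene, held in every genotype. *REV* shares 67 bp at its end with the neighbouring gene AT5G60700, and *KAN1* shares 25 bp with AT5G16550, so reads there can be split between the genes. *KAN1* also overlaps the long noncoding RNA gene AT5G02555 by 435 bp, which is not in the index, and reads of the pair cannot be told apart there. *CNA*, which limits the shoot meristem together with *PHB* and *PHV*, had 1.18 to 2.22 TPM. *ATHB8*, a marker of preprocambial cells on the way to vascular tissue, had 0.593 to 1.74 TPM. In bulk embryos, fewer cells that express a gene and less RNA per cell cannot be told apart.

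**Figure D1:**
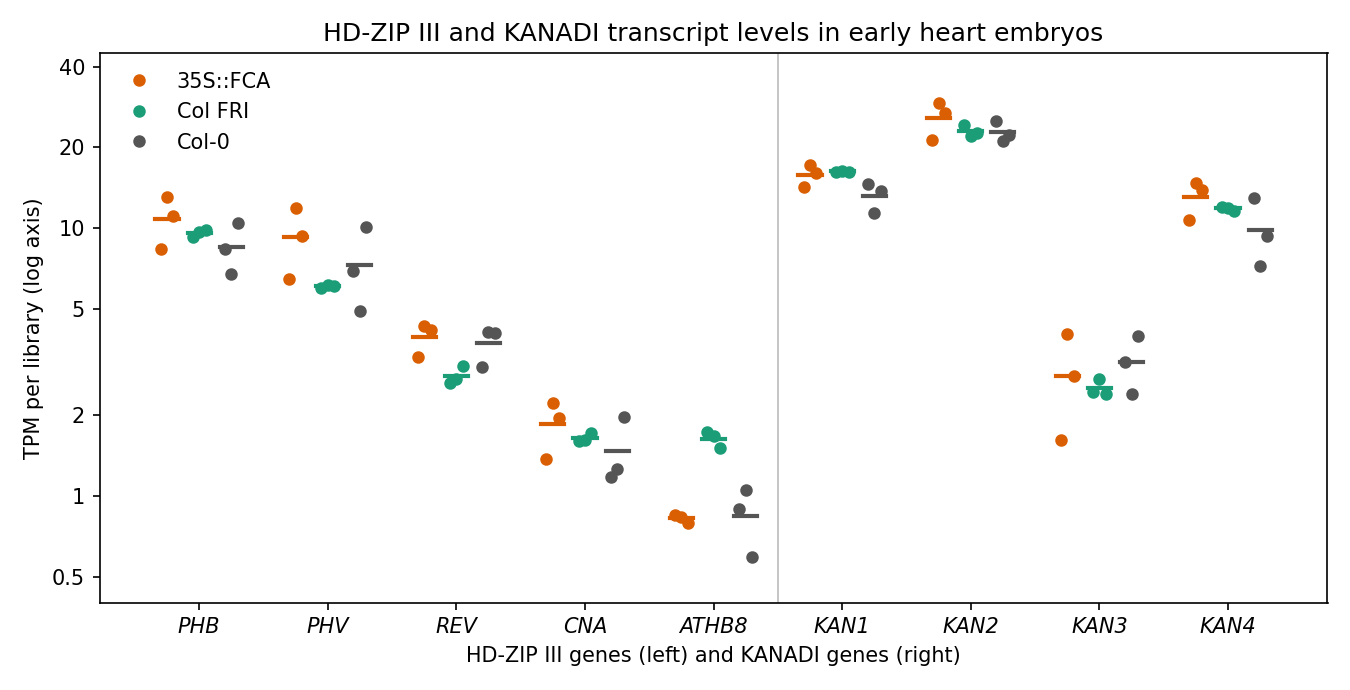
TPM per library on a log axis for each HD-ZIP III and *KANADI* gene, with 1 point per library, coloured by genotype, and a bar at the mean of 3 libraries. *ATHB8* is the HD-ZIP III gene whose 3 Col *FRI* libraries, at 1.50 to 1.74 TPM, all lie above the other 6 libraries.

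None of the 9 genes differed detectably between 35S::*FCA* and Col-0. In the edgeR quasi-likelihood test over 18585 genes, 0 of 9 passed an adjusted p under 0.05 against 1.52% of all genes (0.49% as higher). Likewise 0 of 9 had an unadjusted p under 0.05 in edgeR, where 18.8% of all genes did, and 0 of 9 in DESeq2 or in limma. For DESeq2 and limma the share of all genes at an unadjusted p under 0.05 was not computed. DESeq2 called 0 of 9 at an adjusted p under 0.05 (3.12% of all genes). The TPM of the libraries overlapped for all 9 (10.1% of all genes with enough counts did not overlap). The fold changes had a median of 0.17 on the log2 scale against -0.011 for all genes tested. They ran from -0.31 for *KAN3* (95% interval -0.93 to 0.32) to 0.32 for *KAN4* (-0.041 to 0.67), and the interval was narrowest for *KAN2*, at -0.11 to 0.29. For *ATHB8* the log2 fold change was -0.088 (-0.50 to 0.33), and for each of the 9 members the interval lay inside a 2-fold change in either direction. *PHB* had 8.35, 13.0 and 11.1 TPM in the 35S::*FCA* libraries, against 8.37, 6.71 and 10.4 TPM in the Col-0 libraries. The highest Col-0 value is that of replicate 3. Without Col-0 replicate 3, *PHB* (log2 fold change 0.53, edgeR adjusted p = 0.018), *PHV* (0.65, edgeR adjusted p = 0.037) and *CNA* (0.61, edgeR adjusted p = 0.0231) passed as higher in 35S::*FCA*. That 1 library decides the call for these 3 genes, and without it 8.45% of all genes were called.

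In Col *FRI* embryos *ATHB8* was 2.03-fold higher than in Col-0, and it was the single member that passed the test. The Col *FRI* libraries had 1.74, 1.67 and 1.50 TPM of *ATHB8*, against 0.893, 1.05 and 0.593 TPM in the Col-0 libraries. All Col *FRI* libraries were above all Col-0 libraries, on 105 to 142 counts in Col *FRI* and 51 to 102 in Col-0 at a smaller total depth in Col *FRI*. The log2 fold change was 1.02 (standard error 0.18, 95% interval 0.61 to 1.43, edgeR adjusted p = 0.00848), and the two-sided exact permutation test on TPM gave p = 0.1, the smallest that 3 against 3 libraries allow. With each library left out in turn it ran from 0.90 to 1.17, with edgeR adjusted p from 0.00647 to 0.0468. Adding the 3 Col *FRI* libraries to 1 sample left the log2 fold change at 1.02 and ended the call (edgeR adjusted p = 0.292), and limma on log2 TPM with 0.1 added also ended it (0.91, adjusted p = 0.0517). DESeq2 also called *ATHB8* (adjusted p = 0.000358) and no other member, where it called 11.0% of all genes. In edgeR 13.3% of all genes were called, 6.04% as higher, and a count of 1 in 9 is close to that background. At an unadjusted p under 0.05 there were 3 of 9 members, against 30.0% of all genes. *ATHB8* lies on the same chromosome as *FRI*, 15.6 Mb away.

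The other HD-ZIP III genes did not pass in Col *FRI*. *REV* had 2.64, 2.73 and 3.05 TPM in Col *FRI*, against 3.02, 4.08 and 4.06 TPM in Col-0. Only Col-0 replicate 1 reached down into the Col *FRI* range. The log2 fold change of *REV*, -0.37 (95% interval -0.73 to -0.018), had an unadjusted p of 0.0412 and an edgeR adjusted p of 0.148, and without Col-0 replicate 1 it was -0.56 with an adjusted p of 0.0177. *PHV* had 5.95, 6.15 and 6.08 TPM in Col *FRI* libraries, against 6.89, 4.89 and 10.05 TPM in Col-0 libraries. The Col-0 libraries of *PHV* spread over a range that contains all 3 Col *FRI* libraries, and the log2 fold change was -0.25 (-0.85 to 0.35, edgeR adjusted p = 0.574). Without Col-0 replicate 3 it was 0.18. *PHB* and *CNA* had log2 fold changes of 0.20 and 0.18 (edgeR adjusted p = 0.518 and 0.656), and 0.49 and 0.57 without Col-0 replicate 3, where both passed (adjusted p = 0.0102 and 0.014). In that fit 21.8% of all genes were called.

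*KAN1*, the founding member of its family, had 16.2, 16.4 and 16.2 TPM in Col *FRI*, against 14.6, 11.4 and 13.7 TPM in Col-0. The libraries did not overlap. With *ATHB8* that makes 2 of 9 members, against 26.3% of all genes in this comparison. The log2 fold change was 0.34 (95% interval 0.080 to 0.60, edgeR adjusted p = 0.0824), and 0.47 without Col-0 replicate 3 (adjusted p = 0.00896). *KAN2* had a log2 fold change of 0.055, with the narrowest 95% interval of the members at -0.14 to 0.25. *KAN3* and *KAN4* had log2 fold changes of -0.31 and 0.32, with edgeR adjusted p of 0.511 and 0.216. By the study's own thresholds, an adjusted p under 0.001 and a change above 2-fold, edgeR called 0 of 9 members in each of the 3 comparisons (0.00538% of all genes in 35S::*FCA* against Col-0, 0.183% in Col *FRI* against Col-0 and 0.56% in Col *FRI* against 35S::*FCA*). DESeq2, the tool the paper names, called *ATHB8* at these thresholds in both comparisons of Col *FRI*. The share of all genes that DESeq2 called at these thresholds was not computed, and the edgeR shares do not stand in for it.

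**Figure D2:**
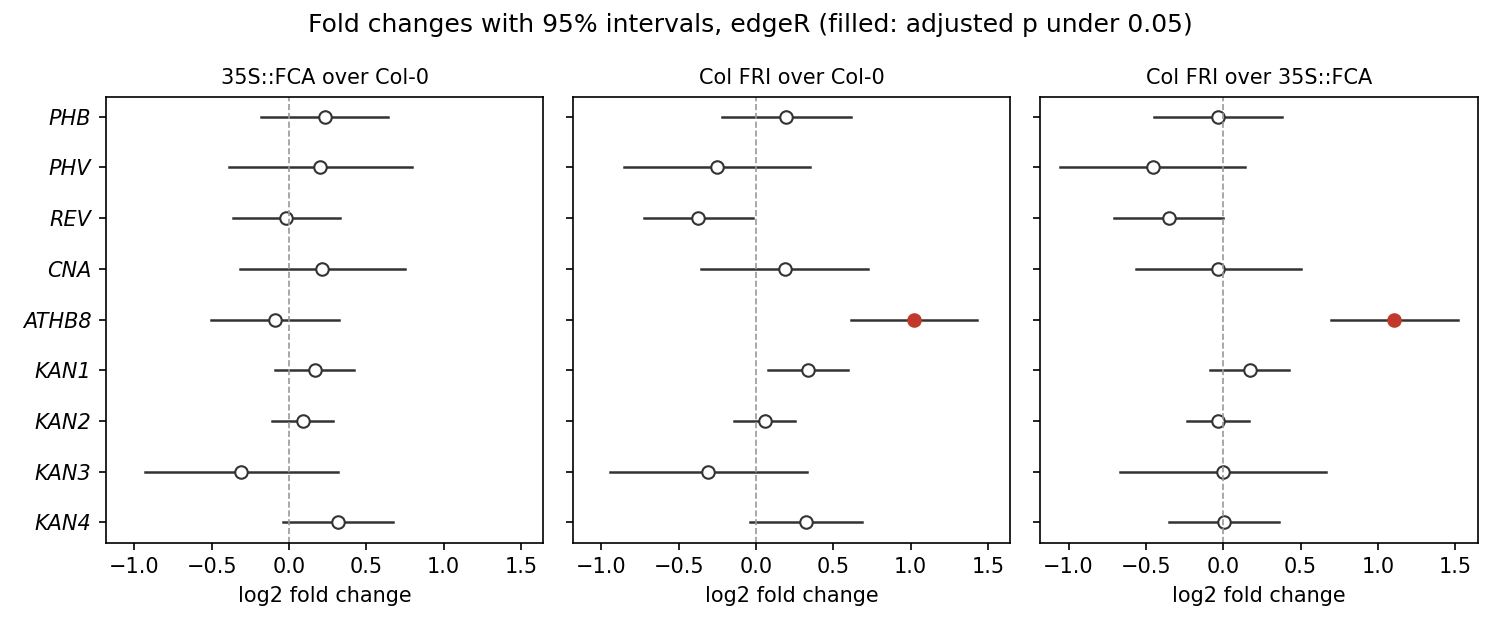
Log2 fold changes of the 9 genes in the 3 comparisons (edgeR, points) with 95% intervals (lines), filled where the adjusted p is under 0.05. *ATHB8* is filled in both comparisons of Col *FRI*, at 1.02 and 1.11, and no other gene is filled.

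Set against 35S::*FCA*, Col *FRI* again had more *ATHB8* transcript. The Col *FRI* libraries, the same as above, had 1.50 to 1.74 TPM, against 0.852, 0.837 and 0.794 TPM in 35S::*FCA*, and no library of one genotype reached the range of the other. The log2 fold change was 1.11 (standard error 0.18, 95% interval 0.70 to 1.52, edgeR adjusted p = 0.00435). It stayed past the threshold with each library left out (adjusted p 0.00236 to 0.0297) and not with the Col *FRI* libraries added to 1 sample (adjusted p = 0.177). *ATHB8* was 1 of 9 members called, against 12.9% of all genes (7.0% as higher), in DESeq2 as well (10.7% of all genes). In edgeR it was also the single member at an unadjusted p under 0.05, against 29.7% of all genes, whereas DESeq2 and both limma fits had *REV* there as well, and this comparison shares the Col *FRI* libraries with the one above. The unadjusted share of all genes was not computed for DESeq2 or limma. The libraries of *REV* and *PHV*, both with lower values in Col *FRI*, did not overlap either, which makes 3 of 9 members, against 35.9% of all genes. *REV* had 2.64 to 3.05 TPM in Col *FRI*, against 3.29, 4.33 and 4.18 TPM in 35S::*FCA*, at a log2 fold change of -0.35 (edgeR adjusted p = 0.169). *PHV* had 5.95 to 6.15 TPM in Col *FRI*, against 6.47, 11.9 and 9.33 TPM in 35S::*FCA*, at a log2 fold change of -0.46 (edgeR adjusted p = 0.284). Neither passed. Without Col-0 replicate 1, whose removal changes the shared estimate of the spread, *REV* passed (adjusted p = 0.0409), and without Col-0 replicate 3 *PHV* passed (adjusted p = 0.0453). In a fit of these 6 libraries alone both did (adjusted p = 0.0129 for *REV* and 0.0234 for *PHV*), as did *KAN1* (log2 fold change 0.17, adjusted p = 0.0459). Without Col-0 replicate 3, 19.6% of all genes were called in this comparison. That share was not computed without Col-0 replicate 1 or for the 6 libraries alone, so these calls have no background. *KAN2*, *KAN3* and *KAN4* had log2 fold changes of -0.033, 0.00048 and 0.0053, whose sign is not fixed for *KAN3* and *KAN4* across the alternatives, and the 95% interval was widest for *KAN3*, at -0.67 to 0.67.

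The make-up of the HD-ZIP III pool was described without a test because it is a score over the members. *ATHB8* made up 7.55 ± 0.720% of summed HD-ZIP III TPM over Col *FRI* libraries, 3.23 ± 0.846% over 35S::*FCA* libraries and 4.14 ± 1.83% over Col-0 libraries (SD, n = 3 per genotype). Its highest share outside Col *FRI* was 5.83%, in a Col-0 library, and its lowest share in Col *FRI* was 6.79%. *PHB* made up 44.1 ± 0.354% over Col *FRI* libraries, 40.6 ± 0.368% over 35S::*FCA* libraries and 39.0 ± 1.95% over Col-0 libraries (SD, n = 3 per genotype), again with no overlap between Col *FRI* and the other genotypes. The same held for *CNA*, with 7.41 to 7.73% in Col *FRI*, at most 7.17% in 35S::*FCA* and at most 7.27% in Col-0. A share depends on the other genes of the pool. In TPM the *PHB* and *CNA* libraries of Col *FRI* overlapped those of both other genotypes, and neither gene was called with all libraries. Such shares were not computed for other genes, so the lack of overlap has no background. *PHV* and *REV* took smaller mean shares than in Col-0, with 27.9 ± 0.438 and 12.9 ± 0.732% in Col *FRI*, against 32.7 ± 5.07 and 17.5 ± 4.49% in Col-0 (SD, n = 3 per genotype). The share of every HD-ZIP III gene had its widest SD in Col-0.

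**Figure D3:**
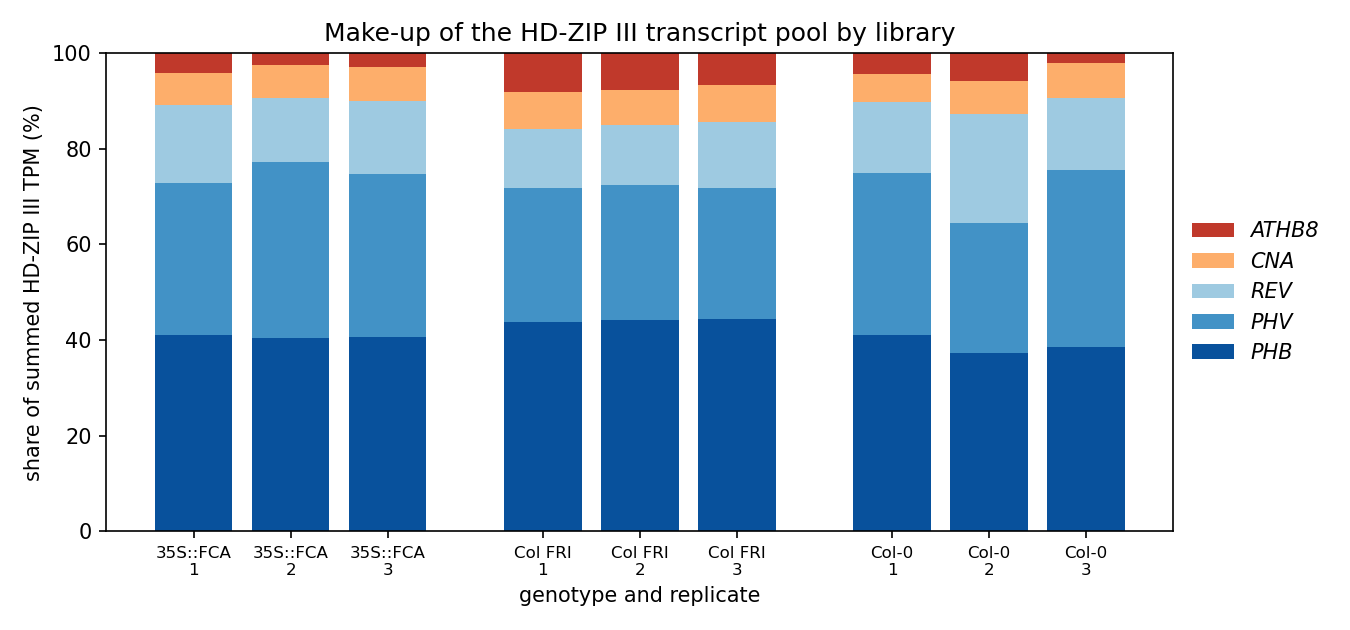
Share of summed HD-ZIP III TPM held by each gene, in percent, as 1 stacked bar per library, with libraries grouped by genotype. The *ATHB8* share at the top of the bars is 6.79 to 8.21% in Col *FRI* and 2.19 to 5.83% in the other 6 libraries.

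Summed over families, HD-ZIP III transcripts had 20.3, 32.3 and 27.4 TPM in 35S::*FCA*, 21.2, 21.8 and 22.2 TPM in Col *FRI* and 20.4, 18.0 and 27.1 TPM in Col-0. *KANADI* transcripts had 47.8, 65.2 and 59.6 TPM in 35S::*FCA*, 54.8, 53.2 and 52.8 TPM in Col *FRI* and 55.7, 42.0 and 49.4 TPM in Col-0. In each library the *KANADI* sum was the larger, and the genotypes overlapped in both sums. The ratio of HD-ZIP III to *KANADI* TPM was 0.460 ± 0.0344 over 35S::*FCA* libraries, 0.405 ± 0.0171 over Col *FRI* libraries and 0.447 ± 0.0929 over Col-0 libraries (SD, n = 3 per genotype). Its log2 differed from Col-0 by 0.057 in 35S::*FCA* and by -0.12 in Col *FRI*, both within the SD of 0.29 between Col-0 libraries. Col-0 replicate 3 had the highest ratio of all, 0.548, and without it the differences from Col-0 were 0.21 in 35S::*FCA* and 0.035 in Col *FRI*. Estimated counts in place of TPM gave 0.057 and -0.14.

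**Figure D4:**
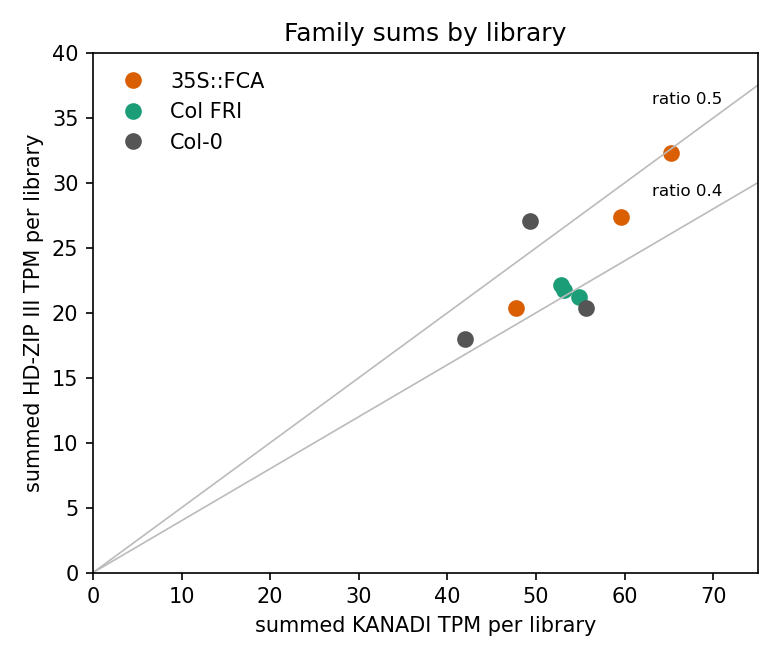
Summed HD-ZIP III TPM (vertical axis) against summed *KANADI* TPM (horizontal axis), with 1 point per library coloured by genotype and lines at ratios of 0.4 and 0.5. The Col *FRI* libraries lie close together between 0.387 and 0.420, inside the Col-0 range of 0.366 to 0.548.

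Isoforms could be compared for *CNA* and *KAN4*, since each other member has a single model in the index. The model AT1G52150.1 took 68.3 to 93.2% of *CNA* counts, AT1G52150.3 took the rest, and AT1G52150.2 was at or close to 0 counts in every library. The first model of *KAN4* took 91.6 to 98.0% of its counts. The test of isoform usage (edgeR diffSpliceDGE) called neither gene in any comparison, where 0.462% of genes were called in 35S::*FCA* against Col-0, 2.34% in Col *FRI* against Col-0 and 2.56% in Col *FRI* against 35S::*FCA*. The unadjusted p was at least 0.224 for both genes in each (edgeR adjusted p from 0.62 to 0.982), and no other tool was run.

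Regulators that work with the HD-ZIP III proteins were read from lists drawn up from textbook knowledge. *ZPR1*, *ZPR3* and *ZPR4* encode small leucine zipper proteins that bind HD-ZIP III proteins and block them, and *ZPR3* is itself activated by REV. *ZPR3* had 19.4, 53.0 and 38.9 TPM in 35S::*FCA*, 17.9, 19.9 and 18.1 TPM in Col *FRI* and 19.9, 21.9 and 30.0 TPM in Col-0. Of the 35S::*FCA* libraries, 2 were above all others and replicate 1 was not, and with all libraries no *ZPR* gene passed in any comparison (edgeR adjusted p from 0.0746 to 0.939). *AS1*, which forms a complex with AS2 on the adaxial side, passed as higher in Col *FRI*, with 62.1 to 63.3 TPM in Col *FRI* libraries against 44.0 to 49.4 TPM in Col-0 libraries (log2 fold change 0.48, edgeR adjusted p = 0.0367). *AGO10*, an Argonaute that sequesters miR165 and miR166, missed the threshold in Col *FRI* against Col-0 (log2 fold change 0.18, edgeR adjusted p = 0.131) and was higher in Col *FRI* than in 35S::*FCA* by 0.25 (adjusted p = 0.0471). Of the 7 adaxial regulators, 6 were tested, and 0, 1 and 1 were called in 35S::*FCA* against Col-0, Col *FRI* against Col-0 and Col *FRI* against 35S::*FCA*, where 1.52, 13.3 and 12.9% of all genes were called. Without Col-0 replicate 3 the numbers were 3 in each, where 8.45, 21.8 and 19.6% of all genes were called. Among them was *ZPR4* in all 3 comparisons, as higher than in Col-0 in both genotypes and as lower in Col *FRI* than in 35S::*FCA* (edgeR adjusted p = 0.00288, 0.0213 and 0.00504). The 5 HD-ZIP II genes, among them *HAT3* and *ATHB4*, which act with HD-ZIP III proteins in cotyledon polarity, had 0 called by edgeR in the same 3 comparisons, with 3, 4 and 3 at an unadjusted p under 0.05, where 18.8, 30.0 and 29.7% of all genes were. *HAT2* had 1.59, 2.58 and 2.53 TPM in 35S::*FCA*, 2.89, 3.03 and 3.62 TPM in Col *FRI* and 6.05, 8.71 and 2.29 TPM in Col-0. Its Col-0 replicate 3 lay below all Col *FRI* libraries. Without that library *HAT2* and *ATHB2* passed as lower in both genotypes than in Col-0 (*HAT2* -1.72 and -1.08 with edgeR adjusted p = 0.00311 and 0.00582, *ATHB2* -1.30 and -1.13 with 0.0206 and 0.0162).

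Among the 6 abaxial regulators, *YAB3*, a YABBY gene of the abaxial side, was lower in both genotypes than in Col-0. It had 14.7, 21.1 and 19.0 TPM in 35S::*FCA*, 15.6, 15.9 and 15.9 TPM in Col *FRI* and 30.6, 26.5 and 27.7 TPM in Col-0. No library of either genotype reached the Col-0 range, with log2 fold changes of -0.72 (edgeR adjusted p = 0.00712) and -0.80 (adjusted p = 0.00111). Of all genes with enough counts, 10.1 and 26.3% had no overlap in these comparisons. Both comparisons share the Col-0 libraries, and *YAB3* lies 0.193 Mb from *FRI* on chromosome 4. *YAB5* and *FIL* were lower in Col *FRI* than in 35S::*FCA* (log2 fold changes -0.69 and -0.28, edgeR adjusted p = 0.00313 and 0.0323), and *YAB2* was higher (0.53, adjusted p = 0.0324). All 6 genes were tested, with 0 called as higher and 1 as lower in each comparison with Col-0. In Col *FRI* against 35S::*FCA*, 1 was called as higher and 2 as lower. Of all genes, 1.52% were called in 35S::*FCA* against Col-0, 13.3% in Col *FRI* against Col-0 and 12.9% in Col *FRI* against 35S::*FCA*. *ETT* and *ARF4*, the auxin response factors that act with KANADI, passed in none of the comparisons (edgeR adjusted p from 0.116 to 0.685). Without Col-0 replicate 3, *ETT* (0.56, edgeR adjusted p = 0.0275) and *YAB5* (0.52, adjusted p = 0.00389) passed as higher in 35S::*FCA* than in Col-0. *YAB2* passed as lower there (-0.62, adjusted p = 0.0334), as *YAB3* still did (-0.63, adjusted p = 0.00336). In that comparison 8.45% of all genes were called without this library.

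The microRNA loci gave few reads, and of 9 loci only *MIR165A* and *MIR166A* were tested. *MIR165A* had 14, 10 and 9 counts in 35S::*FCA*, 15, 10 and 7 in Col *FRI* and 15, 26 and 18 in Col-0. *MIR166A* had 15, 20 and 28 counts in 35S::*FCA*, 12, 11 and 7 in Col *FRI* and 29, 13 and 21 in Col-0. *MIR166B*, not tested, had 7, 4 and 10 counts in 35S::*FCA*, 1, 0 and 1 in Col *FRI* and 10, 3 and 3 in Col-0, and *MIR166G*, also not tested, had 7, 8 and 18 counts in 35S::*FCA*, 1, 2 and 5 in Col *FRI* and 7, 8 and 8 in Col-0. In TPM the Col *FRI* libraries of these 3 *MIR166* loci lay below all 35S::*FCA* libraries, and those of *MIR166B* also below all Col-0 libraries. *MIR165B*, not tested, had 0 counts in Col *FRI*, 1 to 4 in Col-0 and 0 to 6 in 35S::*FCA*, so that it overlapped with 35S::*FCA* and not with Col-0. It lies 0.0983 Mb from *FRI* on chromosome 4. The shares of genes without overlap, 26.3% in Col *FRI* against Col-0 and 35.9% in Col *FRI* against 35S::*FCA*, cover genes with 90 or more counts over the 9 libraries. *MIR165B*, *MIR166B* and *MIR166G* do not reach that count, so these shares are no background for the microRNA loci. The counts of the loci are reads on the index models of the precursors, and 4 of the 9 loci had at most 3 counts in every library. Neither tested locus was called in any comparison (edgeR adjusted p from 0.338 to 0.954). Of 10 genes that make small RNAs or act with them, such as *DCL1*, *HYL1* and *AGO1*, all were tested and none was called in any comparison. At an unadjusted p under 0.05 in edgeR there were 2, 2 and 1, against 18.8, 30.0 and 29.7% of all genes. Without Col-0 replicate 3 edgeR called 2, 3 and 0, against 8.45, 21.8 and 19.6% of all genes. In the list of provascular partners, *MP*, the auxin response factor that activates *ATHB8*, was higher in 35S::*FCA* than in Col-0 (log2 fold change 0.35, edgeR adjusted p = 0.0408) and did not pass in Col *FRI* against Col-0 (0.093, adjusted p = 0.405). In Col *FRI* against 35S::*FCA* it was lower (-0.26, adjusted p = 0.0369). *TMO5*, another target of MP, had 15.05, 14.2 and 14.7 TPM in Col *FRI*, against 15.7, 22.9 and 7.09 TPM in Col-0 (log2 fold change 0.028, adjusted p = 0.957). Of the Col-0 libraries, replicate 3 alone lay below the Col *FRI* range and the other 2 lay above it, and without replicate 3 the log2 fold change was -0.26 (edgeR adjusted p = 0.222). Without it *TMO5* also passed as lower in 35S::*FCA* than in Col-0 (-0.83, adjusted p = 0.0135) and as higher in Col *FRI* than in 35S::*FCA* (0.57, adjusted p = 0.0174).

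As a measure of likeness, each family sum was set against 18576 other genes over the 9 libraries on log2 TPM with 0.1 added. The genes most like the HD-ZIP III sum were *SIGC*, *GAD5* and *HAC12*, with Pearson r of 0.958, 0.950 and 0.948. Those most like the *KANADI* sum were *F8H*, *ARLA1B* and AT1G80810, with r of 0.991, 0.981 and 0.971. The libraries share their depth and their organelle share with every gene, and 44 genes for the HD-ZIP III sum and 135 for the *KANADI* sum had r above 0.9, so these values are a description with no test.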

How the data were processed

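The 9 libraries were Smart-seq2 libraries read as paired 75-base reads in 2 sequencing runs. Values deposited by the authors come from kallisto on TAIR10, as the submitters' processing notes name them. The version and settings are not given in the sources used here. The deposited estimated counts per transcript are not normalized, and the deposited TPM are scaled by the authors to a fixed total over all entries, organelle entries included, so that TPM of single genes depend on the organelle share.

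Counts were summed per gene and rounded. The main test was the quasi-likelihood test of edgeR 4.0.16 under R 4.3.3 (TMM scaling, filterByExpr) over all 9 libraries and 18585 genes, with genotype as the factor. Adjusted p is Benjamini-Hochberg over all genes tested, with calls under 0.05. A standard error is the log2 fold change over the root of F, and intervals use the test's t quantile. DESeq2 1.42.0, the tool the paper names, and limma 3.58.1 were alternatives, beside other scaling, filters, thresholds and sets of libraries. Isoform usage was tested with diffSpliceDGE on rounded counts. Means carry the SD over 3 libraries. On counts simulated for Col *FRI* against Col-0, with 200 of 15106 genes changed, edgeR found 100% of them and made 13 false calls. The planted changes were large, so this share does not measure power for small ones. Every simulated gene and library had the same setting for spread, whereas the spread of the real replicates differed between genotypes. The number of false calls therefore does not measure the error in the real data.

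Members and lists were chosen with earlier results of these data known. Named are all 9 members, the called genes of the adaxial, HD-ZIP II, abaxial, miRNA and small RNA lists, other list genes whose values bear on a member (chosen after their values were seen) and the 3 genes most like each family sum. Positions and sequences are RefSeq on TAIR10.1, whose models can differ in length from those of the index. Depth was 15166826 to 25847613 estimated counts. Replicate numbers 1 to 3 are shared between genotypes in the labels, which do not say that they pair libraries.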

Additional observations from a re-analysis of the deposited data

How the results depend on the processing

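Of the 9 members, 0 were called in 35S::*FCA* against Col-0, 1 in Col *FRI* against Col-0 and 1 in Col *FRI* against 35S::*FCA*, and with each library left out the numbers ran from 0 to 3, 1 to 4 and 1 to 2. Without Col-0 replicate 3 the numbers were 3, 4 and 2, where 8.45, 21.8 and 19.6% of all genes were called. Without Col-0 replicate 1 they were 0, 2 and 2. In Col *FRI* against Col-0 they were 0 with limma on log2 TPM with 0.1 added, 0 with the Col *FRI* libraries added to 1 sample (chosen after seeing the data), 0 at the study's thresholds in edgeR and 2 at an adjusted p under 0.1. In Col *FRI* against 35S::*FCA* they were 0 with the added libraries, 0 at the study's thresholds in edgeR and 4 with only the 6 libraries compared. The cause was not tested, except that adding the libraries removes the replicates. The share of all genes called was not computed without Col-0 replicate 1, at an adjusted p under 0.1 or with only the 6 libraries compared. RLE size factors, both other filters, length-scaled counts, organelle genes left out, limma with 1 added and DESeq2 left all 3 numbers as they were.

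With the replicate number as a block the numbers were 0, 1 and 1, and *ATHB8* in Col *FRI* against Col-0 was at 1.03 on the log2 scale (edgeR adjusted p = 0.0152). Deviations of same-numbered libraries correlated across genes at -0.12 to 0.28 for 35S::*FCA* and Col-0, -0.042 to 0.017 for Col *FRI* and Col-0 and -0.067 to -0.0036 for Col *FRI* and 35S::*FCA*, so the numbers were not taken as pairs. No isoform call arose under any alternative.

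Fold changes close to 0 changed sign. In 35S::*FCA* against Col-0 *REV* was 0.081 and 0.065 and *ATHB8* 0.0048 with limma (0.1 added, 1 added, and 0.1 added). In Col *FRI* against 35S::*FCA* *KAN3* was -0.0038 with DESeq2, -0.064 and -0.065 with limma, -0.0045 with RLE size factors, -0.0046 without a filter, -0.0072 with 6 libraries, -0.0084 with length-scaled counts and -0.0022 with the added libraries, and *KAN4* was -0.13 and -0.12 with limma and -0.0070 with length-scaled counts. On the scale of log2 TPM with 0.1 added the median of all genes in that comparison was -0.12. With single libraries left out, signs changed for *PHV* (-0.047 to 0.65), *REV* (-0.20 to 0.16), *ATHB8* (-0.23 to 0.056) and *KAN3* (-0.56 to 0.0034) in 35S::*FCA* against Col-0, for *PHV* (-0.50 to 0.18), *CNA* (-0.011 to 0.57) and *KAN2* (-0.033 to 0.14) in Col *FRI* against Col-0, and for *PHB* (-0.093 to 0.032), *CNA* (-0.11 to 0.033), *KAN3* (-0.19 to 0.25) and *KAN4* (-0.022 to 0.031) in Col *FRI* against 35S::*FCA*. At 42 to 124 counts per library, *KAN3* had the widest 95% interval of the members in each comparison.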
